A study of Mus musculus with 6 samples.

Results

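The p53 pathway was described through 38 genes chosen by name: the p53 family gene Trp73, the p53 gene itself, regulators that act back on p53, and genes known as p53 targets in cell cycle arrest, cell death, DNA repair and metabolism. A member was represented by a row of the array annotated with its symbol alone, and 35 of the 38 had such a row among 22180 genes. Of these, 33 passed the filter on dim rows, among 16724 genes that did. Trp53, Gdf15 and Ddb2 were not analysed here, and Fas and Eda2r lay below the filter.

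The samples were dissected cortices of mouse embryos at E12.5, each from an independent embryo, hybridised singly to Affymetrix whole-transcript arrays. There were 3 embryos of the genotype Lats1F/F;Lats2F/F;Nestin-Cre, called DKO (double knock-out), and 3 controls, whose alleles the labels do not spell out. Lats1 and Lats2 are the Hippo pathway kinases that restrain the coactivators YAP and TAZ, and Nestin-Cre removes loxP-flanked exons in neural progenitors and their descendants. Blood vessels, meninges and blood cells of the dissected tissue lie outside the neural lineage. All samples were untreated, and values are log2 signals after RMA (robust multi-array average).

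p53 is a transcription factor that is held at low levels by the ubiquitin ligase Mdm2 and is stabilised after DNA damage, prolonged mitosis or ribosomal stress. It then activates genes that stop the cell cycle, trigger apoptosis, repair DNA and adjust metabolism, together with genes such as Mdm2 that switch it off again. In the embryonic cortex p53 is best known for driving the death of neural progenitors after damage or mitotic delay. Many of its targets also answer to other factors: Sesn3, Btg1 and Ccng2, for example, are known targets of FoxO factors in other tissues, and Sesn2 is also a target of the stress factor Atf4.

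The promoters shown are those of the members that passed the test described below (Ccng1, Btg2 and Sesn3), because p53 is known to act on Ccng1 and Btg2 through sites near their starts. Each window runs from 250 bases before to 50 bases after the annotated start, 5′ to 3′ on the gene's strand, from RefSeq on GRCm38.p6. Capitals mark matches to the p53 decamer, the 10-base unit of which a p53 site holds a pair, or to the TEAD motif GGAATG, the motif of the factors that carry YAP and TAZ to DNA. Both strands were searched.
Ccng1, chr11:40755237-40755536, strand minus: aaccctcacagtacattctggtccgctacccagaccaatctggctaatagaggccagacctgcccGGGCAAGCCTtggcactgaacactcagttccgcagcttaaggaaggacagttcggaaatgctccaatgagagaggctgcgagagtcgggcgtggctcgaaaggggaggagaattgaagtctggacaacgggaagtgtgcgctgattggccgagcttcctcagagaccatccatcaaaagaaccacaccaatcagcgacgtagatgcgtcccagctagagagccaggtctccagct
Btg2, chr1:134079106-134079405, strand minus: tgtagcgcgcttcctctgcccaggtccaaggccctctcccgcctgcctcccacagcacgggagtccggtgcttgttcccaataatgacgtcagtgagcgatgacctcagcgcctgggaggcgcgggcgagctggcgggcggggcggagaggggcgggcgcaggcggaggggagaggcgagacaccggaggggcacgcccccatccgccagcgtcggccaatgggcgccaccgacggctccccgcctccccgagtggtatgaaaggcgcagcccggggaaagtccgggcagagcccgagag
Sesn3, chr9:14276051-14276350, strand plus: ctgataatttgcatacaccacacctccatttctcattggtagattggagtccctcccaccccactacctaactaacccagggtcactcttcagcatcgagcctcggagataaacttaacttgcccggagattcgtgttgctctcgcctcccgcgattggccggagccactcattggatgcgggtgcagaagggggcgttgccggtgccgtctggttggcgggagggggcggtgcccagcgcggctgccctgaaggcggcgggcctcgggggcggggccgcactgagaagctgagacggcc

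The Ccng1 window held 1 exact p53 decamer, GGGCAAGCCT, which began 185 bases before the start. The 10 bases just before it brought the stretch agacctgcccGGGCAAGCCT to a whole p53 site with 1 mismatch in 20 letters and no spacer. Neither the Btg2 nor the Sesn3 window held an exact decamer, and none of the 3 windows held GGAATG. Among all 32851 windows in the RefSeq set, 8.36% held a p53 decamer, 14.7% held GGAATG, and 1.09% held a pair of decamers with at most 1 mismatch and a spacer of up to 13 bases, a search added after the Ccng1 promoter had been read. Windows were at hand for 31 of the 38 members, and 9 of these genes (29.0%) had a decamer, against 9.55% of all 27025 genes. Some genes have several windows, and by window the shares were 23.3% of 43 and 8.36% of 32851. The members were chosen as p53 regulators and targets, so a higher share follows from the choice and is no result of these arrays. GGAATG was found for 3 of the 31 (9.68%), against 16.6% of all genes. A pair of decamers with at most 1 mismatch was also found for 3 of the 31 (9.68%), against 1.24% of all genes. The genes were Ccng1, Gtse1 and Polk, and neither Gtse1 nor Polk passed the test. The decamer was also present in windows of Mdm2, Ppm1d, Gtse1, Aen, Ei24, Polk and Sesn1, none of which passed the test, and of Trp53. A match is a run of letters and was not measured as a bound site.

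The arrays were first checked against their labels. Lats1 stood at 7.82, 7.82 and 7.74 in DKO cortex, against 8.81, 8.34 and 8.98 in control cortex, and fell by 0.91 ± 0.14 (SE) on the log2 scale (limma adjusted p = 0.0189). Lats2 was 7.36, 7.18 and 7.27 in DKO against 7.16, 6.84 and 7.11 in control cortex, with an adjusted p of 0.285, and the deleted exons and probe positions are not stated in the labels. Markers of cortical progenitors were present in both groups, and 5 of the 6 measured had a lower DKO mean, with separate groups for 4 (13.4% of all genes were separate with DKO below). Hes5, a Notch target of progenitors, was 9.03, 9.35 and 9.21 in DKO cortex, against 10.17, 10.10 and 10.01 in control cortex, and fell by 0.90 ± 0.09 (SE) on the log2 scale (limma adjusted p = 0.00197). Emx1 was 7.46, 7.26 and 7.45 in DKO cortex, against 7.74, 7.65 and 7.68 in control cortex, with an adjusted p of 0.0994. Lhx2 lay between 10.67 and 10.80 in DKO and between 10.87 and 10.94 in control arrays. Emx2 lay between 8.92 and 9.03 in DKO and between 9.14 and 9.20 in control arrays. The groups overlapped for Pax6 and Sox2. Pax6 was 9.68, 9.64 and 9.58 in DKO cortex, against 9.77, 9.56 and 9.77 in control cortex. Sox2, the marker with the higher DKO mean, was 9.87, 10.12 and 9.87 in DKO cortex, against 9.94, 9.86 and 9.86 in control cortex. The female transcript Xist was above the Y-linked Kdm5d in 1 DKO and 2 control arrays, so the sexes were not balanced. DKO 2 stood apart in 3 marker lists of tissue around the cortex. Its summed signal (log2 of the summed linear values) was 9.17 for 5 meningeal markers, against 9.92 and 10.45 in the other DKO arrays and 9.84 to 10.15 in control arrays. For the 3 measured erythroid markers it was 8.13 in DKO 2, against 9.04 and 9.18 in the other DKO arrays and 8.75 to 8.94 in control arrays. For 6 endothelial markers it was 9.77 in DKO 2, against 10.24 and 10.36 in the other DKO arrays and 10.38 to 10.54 in control arrays.

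Few genes of the p53 pathway passed the test. Ccng1 rose in DKO cortex, Btg2 and Sesn3 fell, and 30 of the 33 tested members did not pass a limma adjusted p of 0.05. In this fit 1.72% of all genes tested were called, 1.36% as higher and 0.359% as lower, and the members called made up 9.09% of those tested. That share rests on 3 genes, of which only Ccng1 kept its call whichever of the 6 arrays was left out. Members and roles were chosen with earlier results of these data known, so this share and those by role below are descriptive only. The median log2 fold change of the members was -0.0019, next to -0.03 for all genes, and its sign depended on the scaling, at 0.01 with each array centred on the median of the genes tested, and was 0.0016 without DKO 2. In 15 of 33 members (45.5%) the DKO mean was the higher, as it was for 39.8% of all genes. The arrays of the groups did not overlap for 13 members, with DKO above in 5 and below in 8. Over all genes tested the groups did not overlap for 21.6%, with DKO above for 8.22% and below for 13.4%. At an unadjusted limma p under 0.05, 4 of the 33 members were higher and 6 were lower, the called ones included. Of all genes 6.39% were higher and 9.18% lower at that threshold. In bulk cortex a change in the number of cells that express a gene cannot be told apart from a change in RNA per cell.

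**Figure D1:**
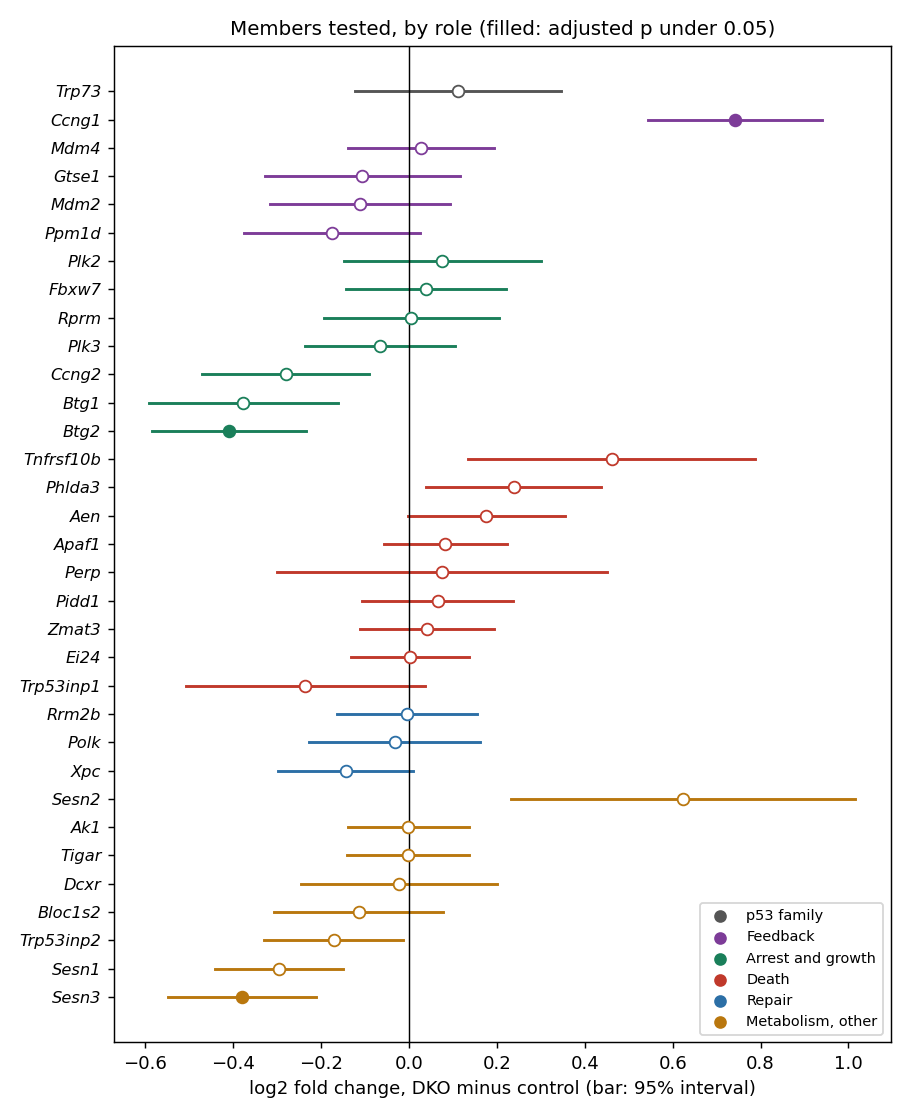
Log2 fold changes (DKO minus control, x axis) of the 33 tested members, grouped by role, with 95% intervals from the limma fit and filled points for an adjusted p under 0.05. Ccng1 stands apart at 0.74, Btg2 and Sesn3 lie at -0.41 and -0.38, and the other 30 points are open.

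Precision was sufficient to bound most of the members that were not called. The median width of the 95% interval was 0.19 to either side of the estimate, with a range of 0.13 to 0.39. For 27 of the 30 uncalled members the interval lay within a 1.5-fold change in either direction. The intervals are not adjusted for the number of genes tested, and for 7 of the 30 they excluded 0. Those 7 were Ccng2, Btg1, Tnfrsf10b, Phlda3, Sesn1, Sesn2 and Trp53inp2. The 3 whose intervals reached past a 1.5-fold change were Btg1 (-0.59 to -0.16), Tnfrsf10b (0.14 to 0.79) and Sesn2 (0.23 to 1.02). With 3 arrays against 3 an exact two-sided permutation test cannot go below p = 0.1, the value reached by each of the 13 members whose groups did not overlap.

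Among regulators that act back on p53, Ccng1 was the gene that changed. It encodes cyclin G1, a p53-induced protein that brings the phosphatase PP2A to Mdm2 and so helps to restrain p53. Its log2 signal was 9.63, 9.36 and 9.33 in DKO cortex, against 8.68, 8.69 and 8.72 in control cortex. The lowest DKO array lay 0.61 above the highest control array, and the control arrays lay closer together (SD 0.02) than the DKO arrays (SD 0.16). Ccng1 rose 1.67-fold, or by 0.74 ± 0.09 (SE) in log2 units, at a limma adjusted p of 0.00409. Leaving out single arrays gave changes of 0.65 to 0.80 and adjusted p values of 0.00733 to 0.0238. The change was 0.78 without DKO 2, the array with low signal of meningeal, erythroid and endothelial markers. With embryo sex as a covariate it was 0.72 (limma adjusted p = 0.0143).

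The other members of this set did not pass. Mdm2, the main ubiquitin ligase of p53 and a p53 target, was 8.10, 7.91 and 7.86 in DKO cortex, against 8.07, 7.94 and 8.19 in control cortex. The groups overlapped, the log2 fold change was -0.11 ± 0.09 (SE), and the 95% interval ran from -0.32 to 0.09 (limma adjusted p = 0.615). Ppm1d encodes Wip1, the phosphatase that removes activating phosphates from p53 and the damage kinases, and is itself a p53 target. It was 9.29, 9.02 and 9.30 in DKO cortex, against 9.33, 9.35 and 9.45 in control cortex, with DKO below by 0.03 at the closest pair of arrays and an adjusted p of 0.387. Mdm4, the Mdm2 partner that masks the activation domain of p53, had a log2 fold change of 0.03, and Gtse1, a microtubule-binding protein that moves p53 out of the nucleus in G2, one of -0.11. Trp73, the p53 relative of Cajal-Retzius neurons, was 6.21, 6.27 and 6.39 in DKO cortex, against 6.07, 6.40 and 6.06 in control cortex. Its groups overlapped, with an adjusted p of 0.655.

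**Figure D2:**
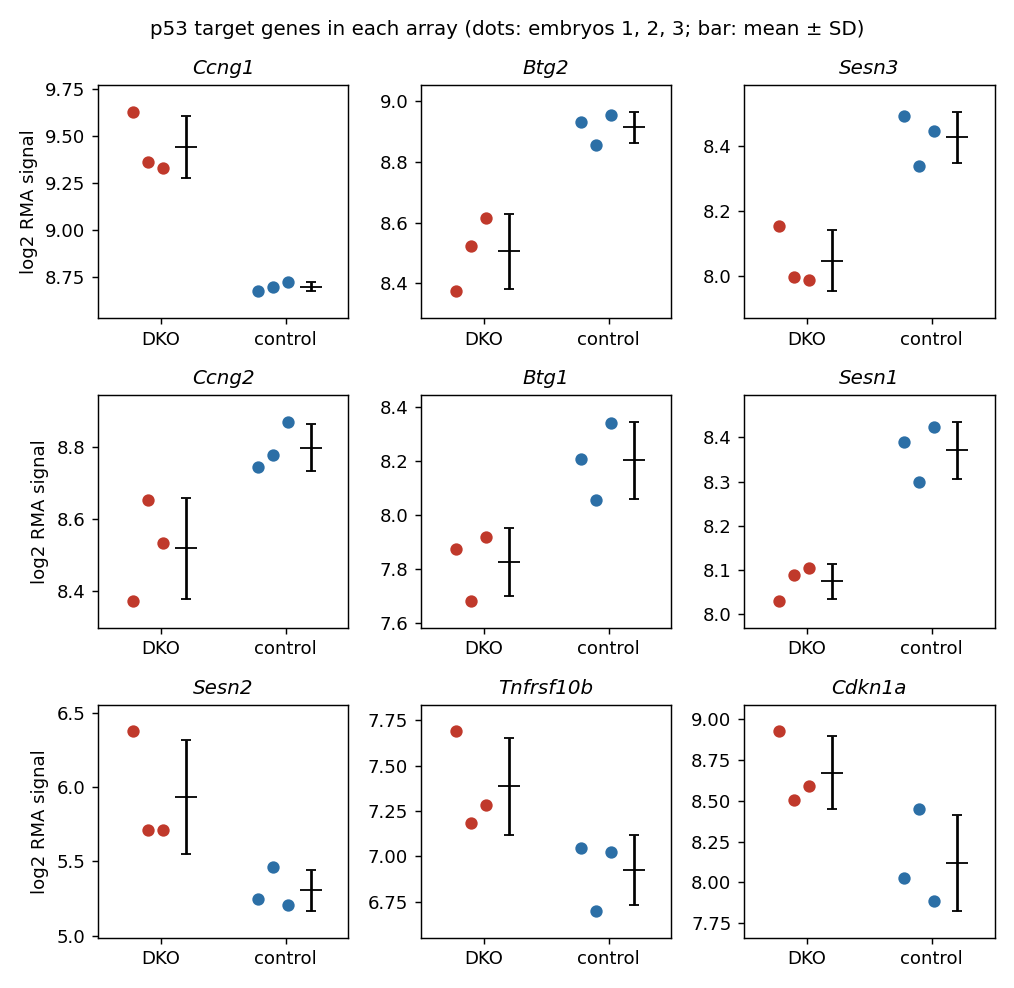
Log2 signal (y axis, scaled separately in each panel) of 9 genes in each of the 3 DKO and 3 control arrays, drawn as dots, with mean ± SD beside them. The groups do not overlap in any panel, DKO is lower for Btg2, Sesn3, Ccng2, Btg1 and Sesn1, and DKO 1 is the highest dot for Ccng1, Sesn2, Tnfrsf10b and Cdkn1a.

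Among arrest and growth genes Btg2 fell. Btg2, an antiproliferative p53 target that also marks neurogenic progenitors of the embryonic cortex under its other name Tis21, was 8.37, 8.52 and 8.62 in DKO cortex, against 8.93, 8.86 and 8.95 in control cortex. The highest DKO array lay 0.24 below the lowest control array. Btg2 fell 1.33-fold, a log2 change of -0.41 ± 0.08 (SE), at a limma adjusted p of 0.0385. The call was lost whichever array was left out, with adjusted p values of 0.0530 to 0.149 and changes of -0.47 to -0.34, and with embryo sex as a covariate (adjusted p = 0.0767). Marker lists of both cell types that make up most of the cortex at this age had lower sums in DKO arrays. Of 5 markers of cortical neurons, 0 had a higher DKO mean (39.8% of all genes did) and 0 were called, and their summed signal was 12.347 to 12.502 in DKO and 12.604 to 12.814 in control arrays. Of 6 measured markers of cortical progenitors, 1 had a higher DKO mean and 1, Hes5, fell. Their summed signal was 12.170 to 12.252 in DKO and 12.410 to 12.471 in control arrays. Hes5 had the largest log2 fold change of these 6, at -0.90, and the groups overlapped for Pax6 and Sox2. The part of neuron and progenitor content in the Btg2 result was not tested.

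Its paralogue Btg1, which likewise slows proliferation, was 7.88, 7.68 and 7.92 in DKO cortex, against 8.21, 8.06 and 8.34 in control cortex. The groups were separate and the log2 fold change of -0.38 ± 0.09 (SE) was close to that of Btg2, but the limma adjusted p was 0.101. Ccng2, which encodes cyclin G2, an inhibitory cyclin high in resting cells, was 8.37, 8.65 and 8.53 in DKO cortex, against 8.74, 8.78 and 8.87 in control cortex. Its log2 fold change was -0.28 ± 0.08 (SE) with an adjusted p of 0.156, opposite in sign to that of Ccng1. The other 4 arrest genes tested lay between -0.07 and 0.08 on the log2 scale with overlapping groups. They were Rprm, whose product reprimo arrests cells in G2, the polo-like kinases Plk2 and Plk3, and Fbxw7, the ubiquitin ligase subunit that marks cyclin E and Myc for destruction. In all, 1 of 7 tested arrest genes fell (0.359% of all genes did) and 0 rose (1.36% did). The groups were separate, with DKO below, for 3 of the 7, next to 13.4% of all genes.

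Of the 3 sestrin genes, Sesn3 fell, and Sesn1 and Sesn2 did not pass the test. Sestrins bind amino acid sensing complexes, restrain mTORC1 and lower oxidative stress. Sesn3 was 8.156, 7.998 and 7.989 in DKO cortex, against 8.494, 8.341 and 8.448 in control cortex, with separate groups. It fell 1.30-fold, a log2 change of -0.38 ± 0.07 (SE), at a limma adjusted p of 0.0455. Its call, too, was lost whichever array was left out (adjusted p 0.0581 to 0.183, changes -0.43 to -0.35) and with embryo sex as a covariate (adjusted p = 0.113). Sesn1, a long-known p53 target, was 8.03, 8.09 and 8.10 in DKO cortex, against 8.39, 8.30 and 8.42 in control cortex. Its groups were separate too, and its log2 fold change was -0.30 ± 0.06 (SE) with an adjusted p of 0.0649. It passed with a trended variance (adjusted p = 0.0315) and with a stricter filter on dim genes (adjusted p = 0.0343), and missed the threshold under the other alternatives run.

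Sesn2, the sestrin that is also an Atf4 target, was 6.37, 5.71 and 5.71 in DKO cortex, against 5.25, 5.46 and 5.21 in control cortex, so that the groups were separate and DKO 1 stood above the other DKO arrays. The log2 fold change of 0.62 ± 0.17 (SE) did not pass, with an adjusted p of 0.130, and was 0.40 without DKO 1. Because Sesn2 missed the threshold, a rise was not established, and the difference between the sestrins was not tested.

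No death gene passed the test. Of 9 tested, 0 rose (1.36% of all genes did) and 0 fell (0.359% did), and the groups were separate, with DKO above, for 3, next to 8.22% of all genes. The DKO mean was the higher for 8 of the 9, next to 39.8% of all genes, and the median log2 fold change of the 9 was 0.08. Without DKO 1 it was the higher for 6 of the 9, because Ei24 and Perp then lay at -0.0154 and -0.0500 on the log2 scale. Leaving out any other single array gave 7 or 8 genes with the higher DKO mean. Tnfrsf10b, the mouse death receptor for TRAIL, was 7.69, 7.19 and 7.28 in DKO cortex, against 7.05, 6.70 and 7.03 in control cortex. Its log2 fold change was 0.46 ± 0.14 (SE) with a limma adjusted p of 0.175, and was 0.31 without DKO 1. Phlda3, an inhibitor of the survival kinase Akt, was 7.84, 7.71 and 7.75 in DKO cortex, against 7.51, 7.70 and 7.39 in control cortex, with 0.02 between the closest arrays and an adjusted p of 0.241. Aen, a nuclease of apoptotic cells, and Trp53inp1, a stress protein that promotes death and autophagy, had the next smallest p values.

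Aen was 6.40, 6.36 and 6.56 in DKO cortex, against 6.33, 6.16 and 6.29 in control cortex, with an adjusted p of 0.329. Trp53inp1 was the 1 tested death gene with a lower DKO mean, at 8.35, 8.43 and 8.13 in DKO cortex against 8.47, 8.37 and 8.78 in control cortex, with overlapping groups and an adjusted p of 0.392. The other 5 lay between 0.0021 and 0.08 on the log2 scale with overlapping groups. They were Apaf1, the scaffold of the apoptosome, Pidd1, which activates caspase-2, Perp, a membrane protein of desmosomes, Zmat3, an RNA-binding zinc finger protein, and Ei24, a protein of the endoplasmic reticulum. The 2 dim receptors were not tested in this fit. Fas, the death receptor for Fas ligand, was 4.56, 4.62 and 4.58 in DKO cortex against 4.48, 4.61 and 4.52 in control cortex. Eda2r, the X-linked receptor for ectodysplasin A2, was 4.67, 4.67 and 4.57 in DKO cortex against 4.37, 4.41 and 4.47 in control cortex, and without the filter its adjusted p was 0.204.

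**Figure D3:**
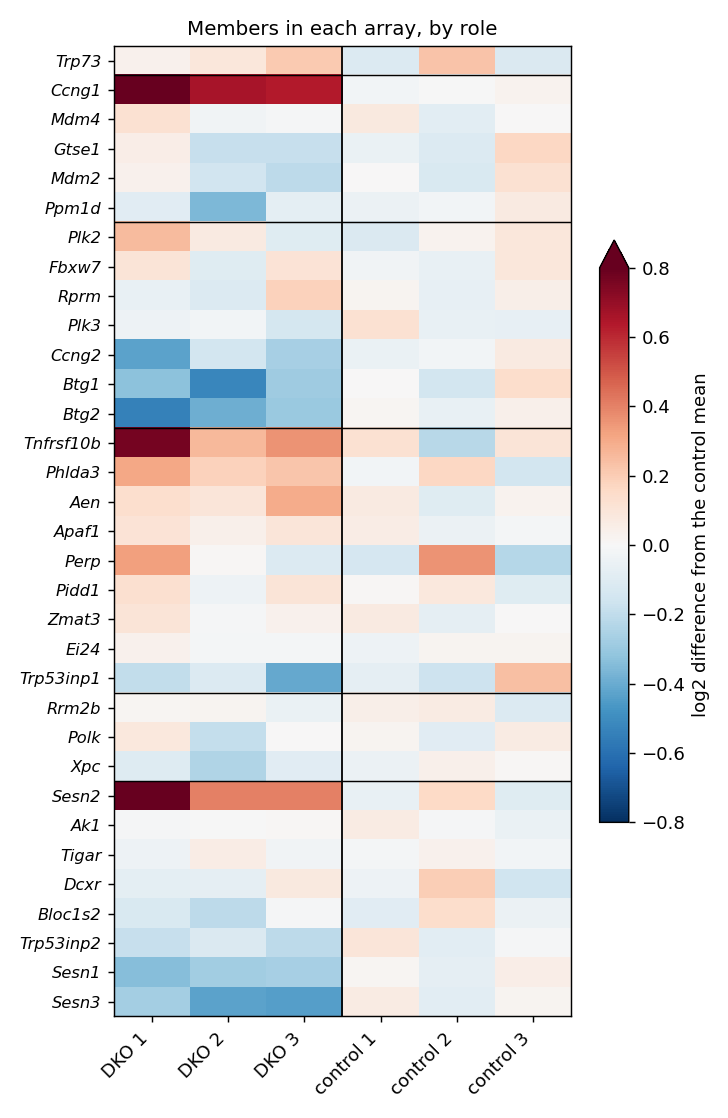
Log2 difference of each array from the control mean of the same gene (colour) for the 33 tested members, with roles parted by lines and the DKO arrays on the left. Colours stop at 0.8, which Ccng1 and Sesn2 pass in DKO 1. The red rows of Ccng1, Sesn2 and Tnfrsf10b and the blue rows of Btg1, Btg2, Ccng2, Sesn1 and Sesn3 run through all 3 DKO arrays, and most other rows are pale.

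Repair genes were close to control. Xpc, which recognises bulky DNA lesions in nucleotide excision repair, was 6.87, 6.73 and 6.88 in DKO cortex, against 6.92, 7.01 and 6.98 in control cortex. Its groups were separate by 0.04 and its log2 fold change of -0.14 ± 0.07 (SE) had a limma adjusted p of 0.356. Polk, a polymerase that copies past damaged bases, was 6.94, 6.67 and 6.86 in DKO cortex against 6.88, 6.77 and 6.92 in control cortex. Rrm2b, the p53-induced subunit of ribonucleotide reductase, was 6.61, 6.62 and 6.54 in DKO cortex against 6.64, 6.66 and 6.48 in control cortex. For both genes the groups overlapped, and the 95% intervals of -0.23 to 0.16 for Polk and -0.16 to 0.15 for Rrm2b held no 1.5-fold change.

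The remaining metabolic and other members did not pass. Trp53inp2, a regulator of autophagy, had separate groups with DKO below by 0.03 at the closest pair, a log2 difference of -0.17 ± 0.07 (SE) and a limma adjusted p of 0.288. Tigar, which lowers glycolytic flux, was 7.35, 7.45 and 7.37 in DKO cortex against 7.38, 7.43 and 7.37 in control cortex, a difference of -0.0019 with a 95% interval of -0.14 to 0.14. Ak1, an adenylate kinase, was 7.37, 7.37 and 7.39 in DKO cortex against 7.44, 7.37 and 7.33 in control cortex. Dcxr, a carbonyl reductase, and Bloc1s2, a subunit of complexes that position lysosomes, had log2 fold changes of -0.02 and -0.11 with overlapping groups. Of the 8 genes of this set, sestrins included, 1 fell (0.359% of all genes did) and 0 rose (1.36% did). The DKO mean was the higher for 1 of the 8, next to 39.8% of all genes, and the lower for 7. Without DKO 1 it was the lower for 4, with log2 fold changes of 0.0174 for Tigar, 0.0029 for Ak1 and 0.0054 for Dcxr. Leaving out any other single array gave 5 to 7 genes with the lower DKO mean.

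Other genes of the pathway were read from a list of 31, of which 27 were tested. By limma 0 of these rose (1.36% of all genes did) and 0 fell (0.359% did). At an unadjusted p under 0.05, 3 of the 27 were higher and 1 was lower, where 6.39% of all genes were higher and 9.18% lower (15.6% together). Their median log2 fold change was 0.02, and 14 of the 27 (51.9%) had a higher DKO mean, next to 39.8% of all genes. Cdkn1a, which encodes p21, the CDK inhibitor through which p53 arrests cells in G1, was 8.92, 8.50 and 8.59 in DKO cortex, against 8.03, 8.45 and 7.88 in control cortex. The groups were separate by 0.06, and the log2 fold change of 0.55 ± 0.16 (SE) had an adjusted p of 0.139. It was 0.72 (adjusted p = 0.0547) without control 2 and 0.43 (adjusted p = 0.324) without DKO 1.

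The next smallest p values in that list were those of Trp53i11, Rap2b and Rpl11. Trp53i11, a p53-induced gene, was 10.36, 10.14 and 10.09 in DKO cortex against 10.49, 10.40 and 10.53 in control cortex, with a limma adjusted p of 0.158. Rap2b, a small GTPase, had a log2 difference of 0.17 ± 0.07 (SE) in the row used. Its other, dimmer row averaged 5.58 in DKO and 5.58 in control arrays, and the mean of both rows gave 0.0853 (limma adjusted p = 0.643). Rpl11, a ribosomal protein that binds Mdm2 under ribosomal stress, had a log2 difference of 0.15 ± 0.07 (SE). The 14 genes upstream of p53, which include the damage kinases Atm, Atr, Chek1 and Chek2, lay between -0.13 and 0.15 on the log2 scale. Bbc3 and Pmaip1, the death activators Puma and Noxa, had log2 fold changes of 0.04 and 0.13 with overlapping groups.

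DKO 1 held the highest of the 6 values in 11 of 33 members, while it was the highest array for 17.6% of all genes tested. DKO 2 was the highest in 1 member (10.2% of all genes) and DKO 3 in 3 (16.7%). Controls 1, 2 and 3 were the highest in 4 members (17.9% of all genes), 6 (14.0%) and 8 (23.5%). Among the 11 were Ccng1, Sesn2, Tnfrsf10b and Phlda3. Without DKO 1, Ccng1 still passed (0.65, limma adjusted p = 0.00733). The summed signal of choroid plexus and cortical hem markers was higher in all DKO arrays. It was 9.59, 10.55 and 9.20 in DKO 1, 2 and 3, against 8.22 to 8.67 in control arrays. All 5 measured markers of that list had a higher DKO mean, next to 39.8% of all genes. Of these, 2 rose, Ttr and Lmx1a, next to 1.36% of all genes. The groups were separate, with DKO above, for 3 of the 5 (8.22% of all genes), and overlapped for Wnt3a and Folr1. DKO 2 had the highest sum, with Ttr at 10.25 against 8.84 and 8.33 in DKO 1 and 3. Ttr and Wnt3a were highest in DKO 2, and Lmx1a, Rspo2 and Folr1 were highest in DKO 1. The part of midline tissue in the p53 target values was not tested.

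**Figure D4:**
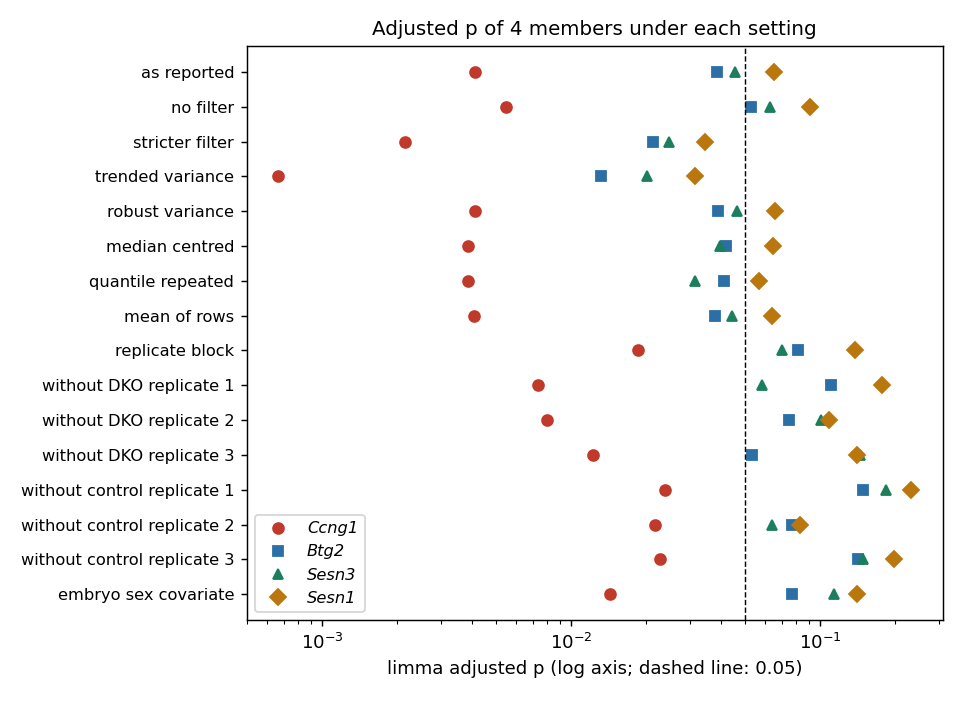
Limma adjusted p (x axis, log scale) of Ccng1, Btg2, Sesn3 and Sesn1 under each setting (rows), with a dashed line at 0.05. Ccng1 lies left of the line in every row, whereas Btg2 and Sesn3 cross it when an array is left out, with no filter, with a replicate block and with embryo sex as a covariate.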

How the data were processed

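Total RNA of 6 embryonic cortices was measured on 1 Affymetrix whole-transcript array each, from 100 ng of RNA per the labels' protocols. The deposited values are log2 signals made by the authors with RMA, per the submitters' processing notes, and its version and the build of the probes are not stated there. RMA equalises the distributions of arrays, so a change in total RNA per cell cannot be seen. Of 41345 rows, 23521 had 1 gene symbol in the platform annotation, 1814 had several and 16010 are unnamed here. For a gene with several rows the row with the highest mean was used. Each tested member had 1 such row, and Zmat3 and Bloc1s2 also occur in a row shared with another symbol, which was not used. Genes with a mean under 5.02, the 25th percentile of one-symbol rows, were left out.

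DKO was compared with control by limma 3.58.1 in R 4.3.3 (lmFit, eBayes, no covariate, two-sided), with Benjamini-Hochberg adjustment over 16724 genes and a threshold of 0.05. Log2 fold changes are given as DKO minus control, and summed signals are log2 of summed linear values. On simulated arrays of this comparison (16724 genes, 200 changed, 5 draws) 74.4% of changes of 0.5 and 98.0% of changes of 1 were recovered, with 6.49% false calls. The simulated noise was independent between genes and arrays and held no differences in tissue or sex. Recovery in the real arrays may therefore be lower. Values per array were given for Lats1, Lats2, Mdm2 and Cdkn1a, for members past the threshold and for the 3 members with the smallest p in each role, and for Trp53inp1, Fas, Eda2r, Tigar and Ak1, which with Bbc3 and Pmaip1 were chosen after their values were seen. Members, roles and lists were chosen with earlier results of these data known. Correlations between arrays were 0.978 to 0.994, and the number of arrays limits the precision. Alternatives were other filters, variance priors, scalings, row rules, a replicate block, leaving out each array, and embryo sex as a covariate, which was added after seeing the data.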

Additional observations from a re-analysis of the deposited data

How the results depend on the processing

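Ccng1 kept its direction and its call under all 15 alternatives. The number of members that fell was 0, against 2 as reported, with no filter, with the replicate block and with embryo sex as a covariate, and 0 whichever array was left out. Over all genes 134 fell with the stricter filter, 162 with a trended variance, 24 with the replicate block and 26 with embryo sex as a covariate, against 60 as reported. Leaving out single arrays gave 121 to 260 genes that rose, against 228, and 11 to 54 that fell. Each such fit holds fewer arrays, yet the count of 260, above that reported, came without DKO 2. The replicate numbers are not tied to litters, and deviations of same-numbered arrays correlated at -0.103, 0.209 and 0.152, so not every array correlated best with its own number. With the replicate block Btg2 had an adjusted p of 0.0813 and Sesn3 of 0.0700, and 176 genes rose. Lats1 missed the threshold without control 1 (adjusted p = 0.0809), control 3 (0.0571), DKO 1 (0.0875) or DKO 3 (0.0811). Of the uncalled members 10 changed sign under some alternative, all with reported log2 fold changes between -0.03 and 0.08. Leaving out single arrays gave log2 fold changes of -0.0206 to 0.0674 for Mdm4, -0.0843 to 0.0648 for Rprm, -0.0115 to 0.162 for Plk2, -0.0500 to 0.256 for Perp, -0.0193 to 0.0135 for Ei24, -0.0912 to 0.0447 for Polk, -0.0607 to 0.0264 for Rrm2b, -0.0336 to 0.0174 for Tigar, -0.0277 to 0.0301 for Ak1 and -0.100 to 0.0773 for Dcxr. Median centring gave 0.0103 for Rrm2b, 0.0135 for Tigar and 0.0141 for Ak1, and repeated quantile normalization gave -0.0112 for Ei24, 0.0142 for Rrm2b, 0.0036 for Tigar and 0.0084 for Ak1. With embryo sex as a covariate Perp was at -0.0617, Ei24 at -0.0085 and Ak1 at 0.0040. The cause of these differences was not tested, and fewer arrays enter a fit without 1 of them. No detection call was at hand, so the levels of dim members such as Fas and Eda2r may be background.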
